A study of Helianthus annuus with 2 samples.

Results

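The 1 Mb windows of the sunflower genome that were densest in H3K4me3 peaks were described in developing seeds sampled 28 and 13 days after anthesis (DAA). This mark, a histone H3 trimethylated at lysine 4, was mapped by ChIP-Seq, in which an antibody against the mark pulls down chromatin fragments that are then sequenced. Seeds came from plants of CAS-9, a high-oleic mutant line kept in growth chambers, and were harvested at a late stage (28 DAA) and at an early stage (13 DAA) of fatty acid biosynthesis, with an anti-H3K4me3 antibody used for both. There was 1 library and 1 peak list per stage, so no spread between replicates exists and no difference was tested. The labels name the developing seed as the tissue, so the embryo and the other parts of the seed cannot be told apart. The lists are called by their labels, although the paper's text gives each peak total to the other stage.

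Histone H3K4me3 typically sits at the start of transcribed genes, where methyltransferases of the SET domain family deposit it, and it is read as a mark of active or poised promoters. In large plant genomes, genes are often more frequent towards the chromosome ends, while repeats fill the regions around the centromeres. Gene models were not used here, so windows are named by their position in the XRQ genome.

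The 17 chromosomes were cut into 2990 whole windows of 1 Mb. The summits of each list were counted per window, each count was divided by the mean of its list over all windows (the scaled count), and the 2 scaled counts were averaged. The dense windows were chosen by this mean, as its top 10%. They were 299 windows, with 24531 of the 121845 peaks of 28 DAA that lay in whole windows (20.1%, 95% Wilson interval 19.9 to 20.4%) and 23672 of the 162182 peaks of 13 DAA (14.6%, 14.4 to 14.8%). Since the counts chose the windows, they are given as a description. The last window inside the threshold, chromosome 3 from 110000001 to 111000000, had a mean scaled count of 1.4858, with 67 peaks at 28 DAA and 72 at 13 DAA. Just before it stood chromosome 15 from 31000001 to 32000000 and chromosome 16 from 164000001 to 165000000, each with 61 and 80 peaks. The first 3 windows outside, chromosome 1 from 145000001 to 146000000, chromosome 11 from 12000001 to 13000000 and chromosome 12 from 23000001 to 24000000, each had 1.4857, with 70 and 68 peaks. The edge of the group was thus a smooth one, with no gap in density.

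The dense windows held a median of 79 peaks at 28 DAA (lowest 58, highest 130) and also of 79 at 13 DAA (lowest 52, highest 121). The other 2691 windows held medians of 35 (1 to 76) and 51 (10 to 91). The window with the highest density lay on chromosome 14 from 143000001 to 144000000, with 127 peaks at 28 DAA and 115 at 13 DAA. It was followed by chromosome 11 from 25000001 to 26000000, with 122 and 121 peaks, the highest 13 DAA count of all windows. The third was chromosome 3 from 157000001 to 158000000, with 129 and 104 peaks. Of the 10 densest windows, 5 lay on chromosome 14, the others of them starting at 169000001 (121 and 108 peaks), 158000001 (114 and 112), 160000001 (113 and 101) and 173000001 (115 and 96). The remaining 3 were on chromosome 9 from 208000001 (130 and 93), on chromosome 15 from 3000001 (123 and 87) and on chromosome 12 from 17000001 (117 and 94). In each of these 10 windows the 28 DAA list had more peaks than the 13 DAA list, beside 14.6% of all windows. Both counts chose these windows, so nothing is read from this.

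**Figure D1:**
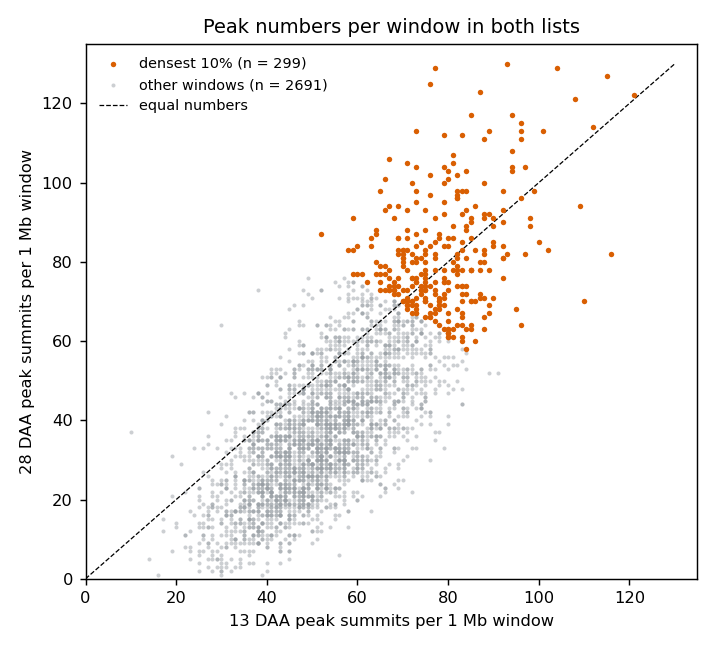
Number of 28 DAA summits (vertical axis) against 13 DAA summits (horizontal axis) in each 1 Mb window, 1 point per window. The 299 dense windows lie at the upper right, with 58 to 130 summits at 28 DAA and 52 to 121 at 13 DAA, and the dashed line marks equal numbers.

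Every chromosome had dense windows. The densest of a chromosome ranged from rank 1, on chromosome 14, to rank 57, on chromosome 16 from 172000001 to 173000000, with 96 and 82 peaks. On chromosome 7 it lay far from the ends, from 65000001 to 66000000, with 85 and 100 peaks. On chromosome 8 it was the very first megabase, with 129 and 77 peaks, and on chromosome 10 the window from 245000001 to 246000000, with 112 and 83 peaks, next to the other end. Those of chromosomes 1, 2, 4, 5, 6, 13 and 17 started at 146000001, 178000001, 173000001, 205000001, 1000001, 174000001 and 24000001, and held between 94 and 113 peaks at 28 DAA and between 73 and 109 at 13 DAA.

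The 2 lists ranked the windows alike only in part. Across all 2990 windows, the counts of both lists had a Spearman correlation of 0.73. This is a description, since both lists share the genome with its gaps and its mappability. Had each list chosen its own top 10%, 164 windows would have been common to both choices, which is 54.8% of either. Of the 299 dense windows, 89 were in the top 10% of the 28 DAA list only, 40 in that of the 13 DAA list only, and 6 in neither. The counts of 28 DAA varied more from window to window, with a coefficient of variation of 50.6% over all windows, against 26.8% for 13 DAA. The 28 DAA list thus weighed more in the choice. When only peaks with a q-value of at most 1e-10 were counted, the coefficients were close, 52.5% at 28 DAA and 49.7% at 13 DAA.

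More peaks at 28 DAA than at 13 DAA were found in 159 of the 299 dense windows, where 14.6% of all windows had them. The scaled 28 DAA count was over 1.5 times the scaled 13 DAA count in 91 dense windows, beside 7.53% of all windows. The opposite, a scaled 13 DAA count over 1.5 times that of 28 DAA, was found in 0 dense windows, beside 20.3% of all windows. Since both counts entered the rule, nothing is read from these shares. The ratio of the scaled counts had a median of 1.37 in the dense windows (quartiles 1.21 and 1.55) and ranged from 0.847 to 2.23. The highest ratios were those of chromosome 8 from 1 to 1000000 (129 and 77 peaks, 2.23), chromosome 3 from 146000001 to 147000000 (87 and 52 peaks, 2.23) and chromosome 8 from 2000001 to 3000000 (125 and 76 peaks, 2.19). The lowest were those of chromosome 12 from 158000001 to 159000000 (70 and 110 peaks, 0.847), chromosome 14 from 2000001 to 3000000 (64 and 96 peaks, 0.887) and chromosome 1 from 74000001 to 75000000 (58 and 84 peaks, 0.919).

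The dense windows lay mostly towards the chromosome ends, which the rule did not use. Chromosome lengths were taken from the end of the last peak. In the outer 10% at either end of a chromosome there were 143 of the 299 dense windows (47.8%, 95% Wilson interval 42.2 to 53.5%), against 446 of the 2691 other windows (16.6%, 15.2 to 18.0%). The midpoint of a dense window stood at a median of 10.5% of the chromosome length from the nearer end (quartiles 4.17 and 19.8%), and that of the other windows at 26.7% (14.5 and 38.5%). Adjacent windows have similar counts, so windows are not independent and these intervals cover counting error only. From the end inwards, 30.4% of the windows were dense in the outermost 5% of the length, 18.3% between 5 and 10%, 13.6% between 10 and 20%, 6% between 20 and 30%, 4.15% between 30 and 40% and 2.17% in the middle. The median ratio of the scaled counts in dense windows was 1.49 in the outermost 5% and 1.10 in the middle, with 1.22 and 0.831 over all windows there.

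**Figure D2:**
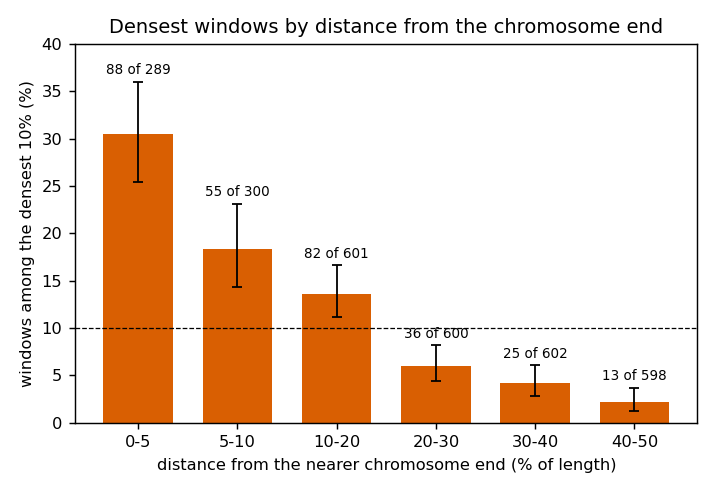
Share of windows that were dense (vertical axis, in percent) by the distance of the window midpoint from the nearer chromosome end (horizontal axis, in percent of chromosome length). Bars are shares with 95% Wilson intervals, the numbers above give dense windows of all windows, and the dashed line marks 10%. The share was 30.4% next to the ends and 2.17% in the middle.

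Only 13 dense windows lay in the middle of a chromosome, more than 40% of its length from either end, where there were 585 other windows. Of these 13, the densest was on chromosome 13 from 80000001 to 81000000, at rank 138, with 71 peaks at 28 DAA and 88 at 13 DAA. Chromosome 13 also had 3 more of them, starting at 86000001, 92000001 and 104000001, and chromosome 1 had 3, starting at 62000001, 74000001 and 88000001. These windows were named after their values had been seen. On chromosome 13 only 2 of the 14 dense windows lay in the outer 10% at either end, whereas on chromosome 4 there were 12 of 15.

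The sides of a chromosome, before and after its midpoint, were not alike. On 12 chromosomes most dense windows lay after the midpoint, and on the other 5, chromosomes 6, 8, 12, 15 and 17, before it. Chromosomes 3 and 9 had all of their 21 and 30 dense windows after the midpoint, and chromosome 6 had all of its 16 before it. Counted over all chromosomes, 40 of the 299 dense windows were on the side with fewer.

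**Figure D3:**
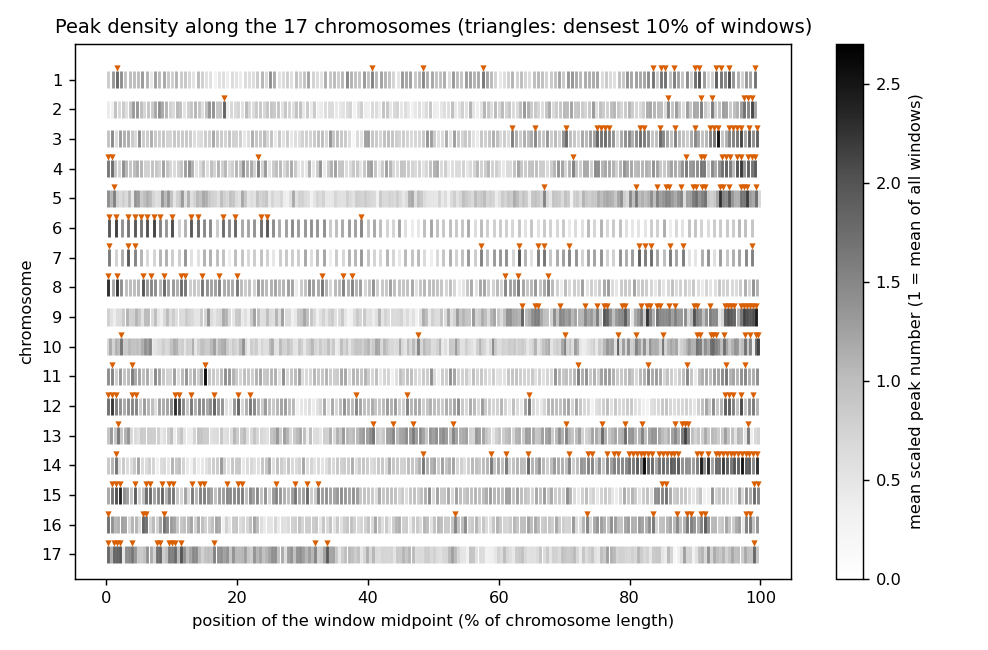
Peak density along each of the 17 chromosomes (rows), by position of the window midpoint in percent of chromosome length (horizontal axis). Darker marks have a higher mean scaled count and triangles mark the 299 dense windows. On most chromosomes these lie mainly on one side of the midpoint, such as after it on chromosomes 9 and 14 and before it on chromosomes 6 and 17.

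Chromosome 14 had the most dense windows, 39 of its 174 (22.4%, 95% Wilson interval 16.9 to 29.2%), followed by chromosome 9 with 30 of 209 (14.4%, 10.2 to 19.8%). In those 39 windows lay 41.5% of the 28 DAA peaks and 31.9% of the 13 DAA peaks of chromosome 14. Chromosome 2 had the lowest share of dense windows, 7 of 180 (3.89%, 1.90 to 7.81%), and chromosome 11 had 8 of 168. The second densest window of the genome was thus on a chromosome that was otherwise poor in them. Without chromosome 14, 48.8% of the remaining 260 dense windows were in the outer 10% at either end.

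Dense windows came in runs. The 299 windows formed 191 runs, of which 129 were single windows, so 56.9% of the dense windows had a dense neighbour. Of 291 dense windows with a following whole window on their chromosome, 108 (37.1%) were followed by another dense one. The scores of adjacent windows had a Spearman correlation of 0.47 over 2973 pairs, and the counts one of 0.49 at 28 DAA and 0.34 at 13 DAA. The longest run covered 12 windows of chromosome 14, from 162000001 to 174000000, where each window had 67 to 121 peaks at 28 DAA and 62 to 108 at 13 DAA. Before it on the same chromosome, the stretches from 139000001 to 146000000 (7 windows, 588 and 625 peaks) and from 147000001 to 153000000 (6 windows, 524 and 477 peaks) were separated from each other by a single window that was not dense. Chromosome 6 had a run of 6 windows from 3000001 to 9000000 (535 and 475 peaks), and chromosome 9 another of 6 between 203000001 and 209000000 (626 and 510 peaks).

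Of the 100 bins of 10 kb in a dense window, a median of 43 held a summit at 28 DAA and 52 at 13 DAA, against 21 and 39 in the other windows. The 100 kb block with most summits held a median of 20% of a dense window's 28 DAA summits and 17.2% of its 13 DAA summits, against 25.9 and 18.8% in the other windows, a share that by itself gets smaller as the number of summits grows. The median distance between neighbouring summits was 5260.5 bp in dense windows and 6926 bp in the others at 28 DAA, and 7768 and 11512 bp at 13 DAA. Of these distances, 27.9% in dense windows and 26.0% in the others were at most 1000 bp at 28 DAA, and 12.7 and 9.02% at 13 DAA. When peaks up to 1000 bp apart were joined into domains, a dense window held 55.2 domains on average at 28 DAA, against 25.2 in another window, a ratio of 2.19 where that of the peaks was 2.27. At 13 DAA there were 67.6 and 46.2 domains, a ratio of 1.46 where that of the peaks was 1.54. The number of peaks per domain was 1.49 in dense windows and 1.43 in the others at 28 DAA, and 1.17 and 1.11 at 13 DAA. Bins with a summit, distances between summits and domains per window all depend on the summit counts that chose the windows. Their values are given as a description.

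Peaks covered 31.0 kb of a dense window on average at 28 DAA, against 13.5 kb of another window, and 18.8 kb against 11.3 kb at 13 DAA. The width of a single peak differed little. Its median was 286 bp in dense windows (95% interval of the median 283 to 289 bp) and 282 bp in the others (280 to 283 bp) at 28 DAA, and 196 bp (195 to 198 bp) and 185 bp (185 to 186 bp) at 13 DAA. These intervals take peaks as independent and cover counting error only. Peaks wider than 1000 bp numbered 894 in the dense windows at 28 DAA, or 2.99 per window against 1.24 in the others, and 63 at 13 DAA, or 0.211 against 0.0606. Such numbers per window rise with the peak counts that chose the windows. As a share of all peaks they were 3.64% in dense windows and 3.43% in the others at 28 DAA. At 13 DAA these shares were 0.266 and 0.118%. Domains of 4 or more peaks numbered 1.22 per dense window against 0.430 at 28 DAA, and 0.278 against 0.0680 at 13 DAA. They were 2.22 and 1.71% of the domains at 28 DAA, and 0.411 and 0.147% at 13 DAA. Among strong peaks, with a q-value of at most 1e-10, there were 63.2 per dense window and 27.4 per other window at 28 DAA, and 25.6 and 12.2 at 13 DAA. For 13 DAA this ratio, 2.10, was larger than that of all peaks. The share of strong peaks was 77.0% in dense windows and 75.8% in the others at 28 DAA, and 32.3 and 23.7% at 13 DAA.

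The strength of the peaks was read from 2 quantities. Fold enrichment is the signal at the summit divided by the local background, as the peak caller MACS2 reports it, and the number of fragments at the summit was solved from this ratio and the p-value. At 28 DAA the median fold enrichment was 5.60 in dense windows (5.56 to 5.64) and 6.01 in the others (5.99 to 6.04), whereas the median number of fragments was 48 (47 to 48) and 42. The local background, the number of fragments expected at the summit from its surroundings, was higher in the dense windows as well, with a median of 7.71 against 6.02 fragments. With no control library named, neighbouring peaks may enter this background. Background and fold enrichment are thus not independent of the rule, and how far neighbouring peaks raised the background was not tested. Only 6.80% of the 28 DAA peaks in dense windows had the genome-wide background as their local one, against 13.3% in the others. More fragments over a higher background thus went with a lower ratio.

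At 13 DAA the medians of these quantities differed by less between dense and other windows. The median fold enrichment was 5.20 (5.17 to 5.23) against 5.13 (5.12 to 5.14), the median number of fragments was 20 against 19, and the median local background was 2.87 against 2.69 fragments. When the comparison was limited to strong peaks (q-value up to 1e-10), the difference in fold enrichment at 13 DAA was 0.0168, with an interval of -0.0297 to 0.0632 that holds 0. Of the 299 dense windows, 50 had a median fold enrichment above the median of the other windows at 28 DAA, and 229 at 13 DAA. By definition, about as many of the other windows lie above that median as below it. These numbers do not give the size of a difference, which was small at 13 DAA.

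The positions of the peaks were shared between the lists more often in dense windows. There, 36.5% of the 28 DAA peaks overlapped a 13 DAA peak by at least 1 bp (35.9 to 37.2%), against 32.8% in the other windows (32.5 to 33.1%). Of the 13 DAA peaks, 40.7% overlapped a 28 DAA peak in dense windows (40.1 to 41.3%), against 24.7% in the others (24.5 to 24.9%). Per window, the share at 13 DAA had a median of 40.2% in dense windows (lowest 20.9%, highest 68.3%) and 23.9% in the others, and 295 of the 299 dense windows lay above the median of the others. Overlap gets likelier with the length that the other list covers. The 28 DAA peaks covered 3.10% of the dense windows and 1.35% of the others, and the 13 DAA peaks 1.88 and 1.13%. The summit of a 13 DAA peak lay inside a 28 DAA peak in 38.6% of the cases in dense windows and 23.2% in the others, which is 12.5 and 17.2 times the covered share. For 28 DAA summits, 32.2 and 28.6% were 17.1 and 25.3 times the covered share. The ratio to the covered share was thus lower in dense windows in both lists.

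For 13 DAA, the share was higher in dense windows in every class of fragment numbers, but by least in the highest class. With up to 15 fragments at the summit, 25.9% of the peaks overlapped in dense windows (24.5 to 27.4%) and 12.8% in the others (12.4 to 13.2%). From 15 to 20 fragments the shares were 30.4 and 16.8%, and from 20 to 30 fragments 44.0 and 31.1%. With more than 30 fragments, the shares were 75.6% (74.0 to 77.1%) and 73.4% (72.5 to 74.2%). For 28 DAA, peaks with more than 80 fragments overlapped in 64.0% of the cases (62.8 to 65.2%) and 61.9% (61.3 to 62.5%), and those with up to 20 fragments in 34.1% (32.4 to 35.9%) and 31.7% (31.0 to 32.5%). Between these the shares were lower, 26.2 and 22.5% from 20 to 40 fragments and 25.4 and 22.9% from 40 to 80. The classes do not correct for the length covered by the other list, which was larger in dense windows. They thus cannot show more overlap than that length would bring.

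**Figure D4:**
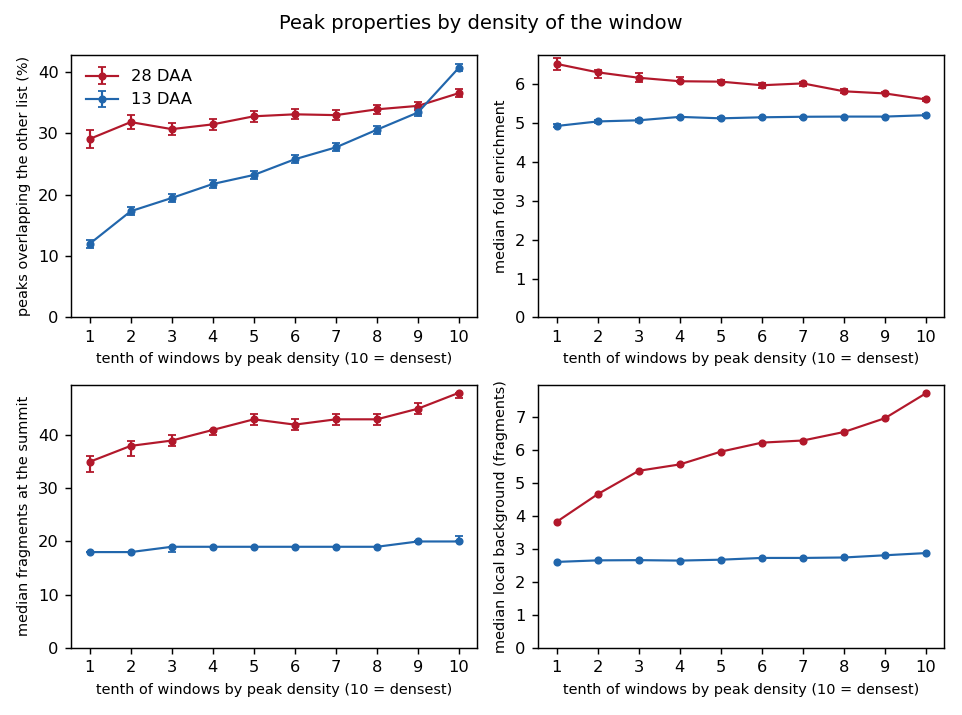
Properties of the peaks in 10 groups of windows sorted by density (horizontal axis, 10 being the 299 dense windows), for the list of 28 DAA and that of 13 DAA. The panels give the share of peaks that overlap the other list, the median fold enrichment, the median fragments at the summit and the median local background, with 95% intervals for counting error on the first 3. The share at 13 DAA reached 40.7% in the densest group, against 12% in the sparsest.

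The dense windows were the end of a gradient. In 10 groups of 299 windows, ordered by increasing density, the share of 13 DAA peaks that overlapped the other list was 12, 17.3, 19.5, 21.7, 23.2, 25.8, 27.7, 30.6, 33.4 and 40.7%. The step into the densest group was larger than any other. Peaks per window, which sorted the groups, also took their largest step there. They went from 61.4 to 82.0 at 28 DAA and from 68.1 to 79.2 at 13 DAA. Overlap gets likelier with the length that the other list covers, so nothing is read from this step. The median fold enrichment at 28 DAA was 5.60 in the densest group and 6.52 in the sparsest, and the local background 7.71 and 3.82 fragments. In the same groups at 13 DAA, the fold enrichment was 5.20 and 4.92 and the local background 2.87 and 2.60 fragments.

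Among the dense windows, those in the outer 10% at either end of a chromosome held a median of 84 peaks at 28 DAA and 79 at 13 DAA, and the 156 others 74 and 78. The share of overlapping 13 DAA peaks had a median of 43.1% near the ends (quartiles 37.0 and 48.6%) and 38.7% elsewhere (33.6 and 42.9%). Peak width and fragments were the same or nearly so, with medians of 284 and 284.25 bp at 28 DAA and of 20 fragments in both at 13 DAA.

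Unlike all other windows, 3 dense windows had a very high local background. They were chromosome 12 from 158000001 to 159000000, chromosome 12 from 161000001 to 162000000 and chromosome 14 from 2000001 to 3000000, and were singled out after their values had been seen. Their median local backgrounds were 30.01, 35.9 and 30.9 fragments at 28 DAA and 45.6, 54.9 and 48.8 fragments at 13 DAA. The next highest dense window had 14.4 fragments at 28 DAA and 4.06 at 13 DAA, and no window of the rest was above 19.8 and 4.46. The median fold enrichment of these 3 windows was 2.44, 2.31 and 2.53 at 28 DAA and 2.71, 2.11 and 2.48 at 13 DAA. They held 70, 82 and 64 peaks at 28 DAA and 110, 116 and 96 at 13 DAA, and in 2 of them the ratio of scaled counts was the lowest of all dense windows.

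At 28 DAA, 6712 peaks on the chromosomes had a local background over 20 fragments, and 165 of them (2.46%) lay in these 3 windows. At 13 DAA there were 524 such peaks, of which 213 (40.6%) lay in them. For 13 DAA, within chromosome 14 from 2000001 to 3000000 their summits lay between 2524300 and 2999722, within chromosome 12 from 158000001 they lay between 158272478 and 158476088, and within chromosome 12 from 161000001 between 161385449 and 161969765. Of the 28 DAA peaks in the 3 windows, 77.3% overlapped the other list (71.3 to 82.4%), against 36.2% in the 296 other dense windows. For 13 DAA peaks the shares were 48.8% (43.3 to 54.2%) and 40.6%. Peaks on the mitochondrial sequence, set beside them, had a median fold enrichment of 2.24 over a local background of 36.7 fragments at 28 DAA, and of 2.51 over 25.5 fragments at 13 DAA. Those on the plastid sequence had 4.81 over 6.55 fragments at 28 DAA and 4.43 over 8.72 fragments at 13 DAA. Whether sequence shared with the mitochondrion or present in many copies plays a part in the 3 windows was not tested.

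**Figure D5:**
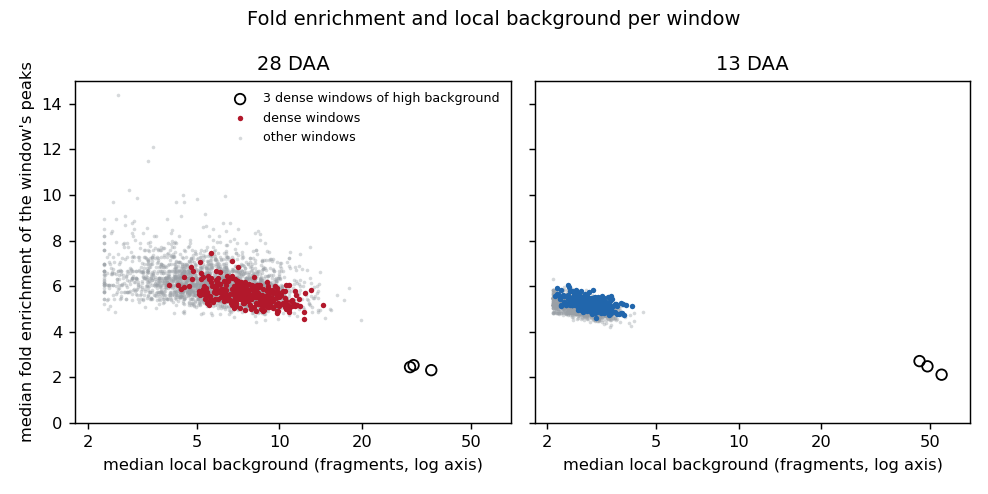
Median fold enrichment (vertical axis) against median local background (horizontal axis, logarithmic, in fragments) of the peaks in each window, for 28 DAA on the left and 13 DAA on the right. Circles mark the 3 dense windows of high background, at 30.01 to 35.9 fragments at 28 DAA and 45.6 to 54.9 at 13 DAA, away from all other windows.

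These 3 windows decided several of the extremes at 13 DAA. They held 19 of the 63 dense-window peaks wider than 1000 bp, 21 of the 83 domains of 4 or more peaks and 215 of the 547 peaks with more than 50 fragments. Without them, 1.42% of the 13 DAA peaks in dense windows had more than 50 fragments and 0.188% were wider than 1000 bp, against 0.863 and 0.118% in the windows that were not dense. Without them, the medians of width, fold enrichment and fragments in dense windows were 286 bp, 5.62 and 47 at 28 DAA and 196 bp, 5.22 and 20 at 13 DAA.

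Among the 13 DAA peaks in dense windows, those with most fragments lay in the same 3 windows. Each list also had stronger peaks outside the dense windows, which are not described here. The first, on chromosome 14 from 2680574 to 2680721, had 167 fragments at its summit (95% Poisson interval 143 to 194) but a fold enrichment of only 1.71 over a background of 97.1. The other two, on chromosome 12 at 161680345 to 161680514 and at 161872290 to 161872582, both had 163 fragments. The widest 13 DAA peaks of the dense windows were there too, on chromosome 14 from 2981993 to 2984913 (2921 bp) and from 2953204 to 2956054 (2851 bp) and on chromosome 12 from 161749801 to 161752631 (2831 bp). The 3 peaks with the highest fold enrichment at 13 DAA among those in dense windows were outside these 3 windows. They lay on chromosome 5 at 199354289 to 199354692 (20.6), chromosome 13 at 193296213 to 193296562 (19.7) and chromosome 3 at 110790981 to 110791234 (19.0), and each overlapped 1 peak of 28 DAA. That on chromosome 5 had 76 fragments at 13 DAA, and the 28 DAA peak over it 227 fragments and a fold enrichment of 22.4.

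At 28 DAA the strongest peaks of the dense windows lay outside the 3 windows. The dense-window peak with most fragments was on chromosome 10 from 192812096 to 192812787, with 242 fragments (212 to 274) and a fold enrichment of 6.88, followed by chromosome 16 from 171554580 to 171555222 and chromosome 17 from 212592203 to 212594318, with 228 each. Although equal in fragments, the peaks on chromosomes 16 and 17 differed in fold enrichment, with 17.1 on chromosome 16 and 6.69 on chromosome 17, over backgrounds of 12.4 and 33.2 fragments. All 3 overlapped peaks of 13 DAA. The widest in dense windows were those of chromosome 15 at 55153836 to 55156234 (2399 bp), chromosome 12 at 36299105 to 36301498 (2394 bp) and chromosome 2 at 178915165 to 178917378 (2214 bp), and each overlapped 2 peaks of 13 DAA. The highest fold enrichment at 28 DAA in dense windows, 27.8, belonged to a peak on chromosome 17 from 212917803 to 212918179 with 102 fragments (83.2 to 124), in the same window as the peak of 2116 bp on that chromosome, and it overlapped no peak of 13 DAA. The next were those of chromosome 8 at 8298958 to 8299347 (27.3) and chromosome 4 at 168960874 to 168961453 (25.9), both of which overlapped a 13 DAA peak, of fold enrichment 7.74 and 11.9.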

How the data were processed

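The data were the peak lists of 1 ChIP-Seq library per stage (28 and 13 DAA). The authors trimmed and filtered the reads (FASTX-Toolkit), aligned them to the genome of line XRQ (BWA-MEM), marked and dropped duplicates (Picard) and called the peaks of each stage (MACS2). No source used here names a control library. The deposited fold enrichment is a ratio, the p-value and q-value were deposited as −log10, and the deposited score is the −log10 q-value times 10, rounded down. Library totals were not used here. The lowest local background, taken as the genome-wide one, was 2.30 fragments at 28 DAA and 2.10 at 13 DAA.

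Fragments at a summit were solved from fold enrichment and p-value (Poisson, pseudocount 1, tolerance 0.001 on −log10 p), which succeeded for 100% of the peaks. Positions count from 1. Lengths end at the last peak. Shares have 95% Wilson intervals. Scripts were tested on simulated data. Windows named were the 10 densest, those at the threshold, the densest per chromosome, the longest runs and the extreme ratios. Peaks named were the 3 strongest by fragments, width and fold enrichment among the dense-window peaks of either list. The windows and rules were chosen with earlier results of these data known. Alternatives changed the window length and start, the share taken, the list that ranks, the joining of peaks, the q-value and the overlap. Tables and statistics were made in pandas 2.3.3, scipy 1.17.1 and numpy 2.4.6, and plots in matplotlib 3.10.9, under Python 3.11.15. The gene table supplied is of another genome version, so gene content was not analysed here.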

Additional observations from a re-analysis of the deposited data

Results flagged for a closer look

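The median fold enrichment differed from that of the other windows in opposite directions at the 2 stages. In dense windows minus other windows it was -0.411 at 28 DAA and 0.0708 at 13 DAA. With 1 library per stage this difference between the stages was not tested. The value at 13 DAA was small. It was 0.0168 at a q-value of at most 1e-10, with an interval of -0.0297 to 0.0632 that holds 0. Ranked by the 13 DAA list alone, it was 0.0184.

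The partial windows at the chromosome ends, which the ranking left out, held 570 summits of 28 DAA and 642 of 13 DAA in 9.54 Mb, or 59.8 and 67.3 per Mb. Of the 16 partial windows of at least 100 kb, 7 had a density at or above the threshold of the dense windows. The densest was the end of chromosome 4 from 178000001 to 178889148, with 130 and 110 summits, a mean scaled density of 2.93 that was above that of every whole window.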

How the results depend on the processing

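None of the 126 recomputed values changed sign, and 53 lay beyond the interval for counting error of the main value. The shares of dense windows near the ends and of peaks in dense windows cannot change sign. For these shares only the size is informative, and the share of peaks moves with the share of windows taken. Differences are dense minus other windows. Windows of 500 kb gave a rank correlation of 0.688, 22.0 and 15.5% of the 28 and 13 DAA peaks in dense windows, a difference in fold enrichment of -0.515 at 28 DAA, of 7 and 2 fragments, and of 18.1 percentage points in overlap at 13 DAA. Windows of 2 Mb gave 0.777, 18.9 and 13.9%, -0.354, 5 fragments at 28 DAA and 14.7 points, with 53.7% of the dense windows in the outer 10% at either end. The top 5% gave 63.1% there, 11.2 and 7.76% of the peaks, overlap differences of 4.69 and 18.5 points, and 7 and 2 fragments. The top 20% gave 37.5%, 35.2 and 27.2% of the peaks, and 14.1 points at 13 DAA. Ranked by the 28 DAA list alone, 20.4 and 13.997% of the peaks were in dense windows, overlap differed by 2.25 and 16.8 points, fold enrichment by -0.340 and 0.127, and fragments by 5 at 28 DAA. Ranked by the 13 DAA list alone, 37.8% of the dense windows were in the outer 10%, with 17.9 and 15.1% of the peaks, 5.86 and 11.7 points, 7 fragments at 28 DAA and a fold difference of 0.0184 at 13 DAA. With joined peaks, the correlation was 0.681, and the differences at 28 DAA were -0.336 in fold and 4 fragments. A q-value of at most 1e-10 gave 20.4 and 19.7% of the peaks, fold differences of -0.481 and 0.0168, and 12.5 points at 13 DAA. An overlap of 50% of both intervals gave 2.74 and 8.75 points. The alternatives added after the data were seen gave 5 fragments at 28 DAA without the 3 windows of high background, and, without chromosome 14, 5 fragments at 28 DAA and 18.6 and 13.4% of the peaks.

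No paired analysis was possible because each stage has a single library. Fragments limit how well any peak is measured, with medians in dense windows of 48 at 28 DAA and 20 at 13 DAA. The rank of a window near the threshold depends on single peaks. The width difference at 28 DAA, 4 bp, was 1 bp at a q-value of at most 1e-10 (-3.47 to 5.47), and its interval also held 0 for the top 5% (-0.123 to 8.12) and for the ranking by the 28 DAA list alone (-0.354 to 6.35). Stages and libraries cannot be told apart.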
